A study of Danio rerio with 6 samples.

Results

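The 10 genes described here encode digestive enzymes of the exocrine pancreas: the trypsins prss1, prss59.1 and prss59.2, the chymotrypsin ctrb1, the elastases ela2 and ela3l, the carboxypeptidases cpa1, cpa5 and cpb1, and the amylase amy2a. They were chosen by symbol, for their role, and all 10 were among the 15419 gene symbols counted. RNA-seq was performed on guts dissected from zebrafish larvae at 5 days post-fertilization (dpf), from 3 pools of il26-/- larvae and 3 pools of WT larvae. Both groups were reared germ-free (GF), from bleached eggs in sterile medium with ampicillin, kanamycin, ceftazidime and chloramphenicol, so antibiotics and the absence of microbes are shared by il26-/- GF and WT GF. Each library was made from 10 to 15 pooled guts. The il26-/- line was made with CRISPR/Cas9 in a collection whose wild-type line is AB, and its larvae came from adults that were clutchmates of the WT parents but were housed apart from them, so genotype and parental tank cannot be told apart. The comparison asks whether the loss of il26, a cytokine gene of the IL-10 family, alters the gut transcriptome when microbes are absent.

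Acinar cells of the exocrine pancreas make digestive enzymes, store the proteases among them as inactive precursors (zymogens) in granules, and release them through the pancreatic duct into the intestine. There, cleavage of trypsinogen by an enteropeptidase yields trypsin, which activates the other zymogens in turn. In the larval zebrafish the pancreas lies against the intestine, so a dissected gut can carry pancreas, liver and other attached tissue with it. In bulk RNA of this kind, fewer cells of a type and less RNA per cell cannot be told apart.

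The total counts were 7528412, 38143258 and 16095605 in il26-/- GF replicates 1, 2 and 3 and 21188195, 21652562 and 29399034 in WT GF replicates 1, 2 and 3. No read was counted on il26 itself in any of the 6 libraries, il26-/- GF or WT GF, so the counts do not check the genotype labels. Of 11062 genes tested with edgeR's quasi-likelihood test, 1 gene (0.00904%) had a Benjamini-Hochberg adjusted p under 0.05 and 589 (5.32%) had an unadjusted p under 0.05. The groups did not overlap in CPM (counts scaled to a common library size of 1e6 by the TMM method) for 1066 genes (9.64%), and for 532 of these (4.81% of all genes tested) il26-/- GF was the higher group. Against the label of gut, the intestinal genes vil1 and cdh17 were abundant in every library. By contrast fabp2, an intestinal fatty acid binding protein gene, was at 0.485 to 0.839 CPM.

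No digestive enzyme gene passed the test between il26-/- GF and WT GF. At an adjusted p under 0.05, 0 of the 9 members tested by edgeR were called (0.00904% of all genes were), and at an unadjusted p under 0.05 the count was also 0 of 9 (5.32% of all genes were). DESeq2, a likelihood ratio test and limma-voom likewise gave 0 members at either threshold. The median log2 fold change of the 9 members was -0.10, against -0.0011 for all genes tested. Among the 9 the groups did not overlap for 1, cpb1, which was higher in il26-/- GF (4.81% of all genes were).

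Together the 10 genes held a large and variable share of the RNA. They took 4.30% of the counts in il26-/- GF replicate 1 (95% Wilson interval 4.28 to 4.31), 5.03% in replicate 2 (5.02 to 5.03) and 5.33% in replicate 3 (5.32 to 5.34). In WT GF they took 4.34% in replicate 1 (4.33 to 4.35), 5.86% in replicate 2 (5.85 to 5.87) and 4.96% in replicate 3 (4.95 to 4.96). The intervals cover counting error only, and they are far narrower than the distances between replicates of one genotype. The share averaged 4.88% ± 0.533 in il26-/- GF and 5.05% ± 0.763 in WT GF (SD, n = 3 each), a ratio of 0.967, while the highest and the lowest library differed 1.36-fold. Both the lowest and the second highest share belonged to il26-/- GF libraries, so the groups overlapped. In every library 4 of the 10 genes were among the 20 genes with the most counts.

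**Figure D1:**
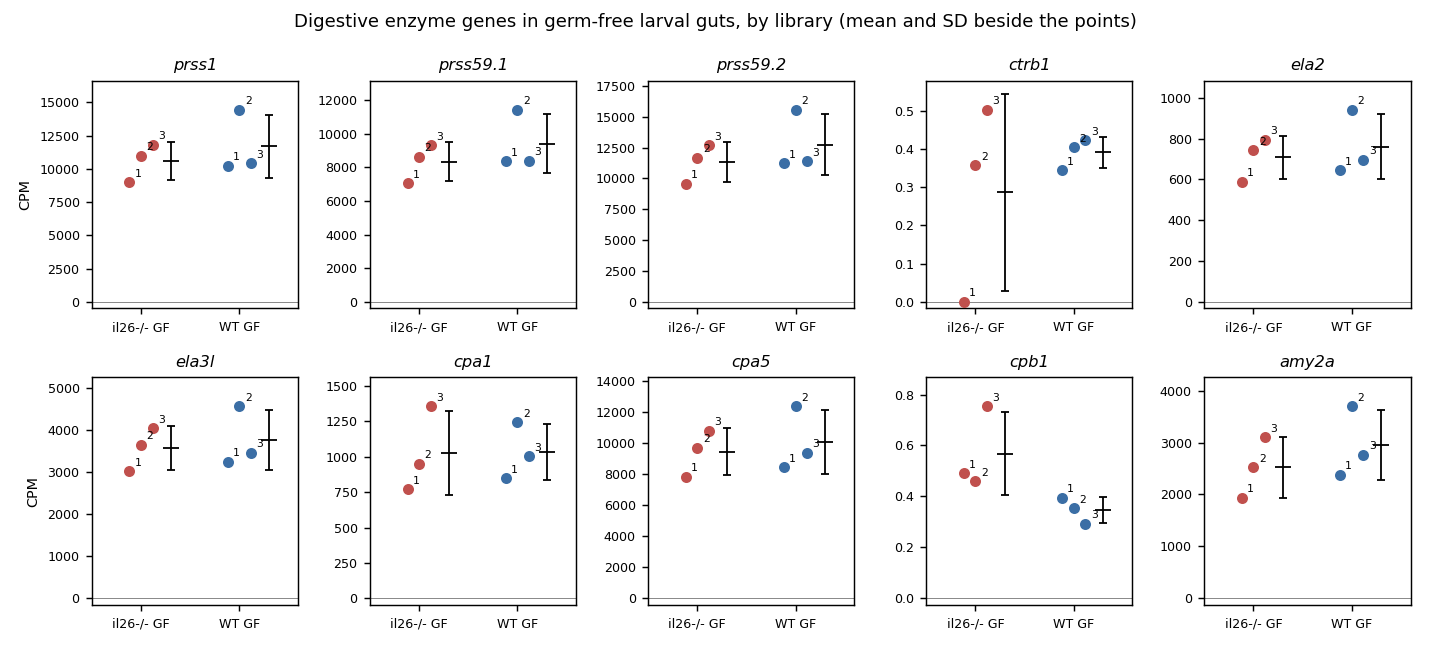
CPM (y axis, linear, scaled by TMM) of the 10 digestive enzyme genes in each il26-/- GF library (left of each panel) and WT GF library (right), with replicate numbers beside the points and the mean ± SD of 3 libraries as a bar. WT GF replicate 2 is the highest library for 7 of the 8 abundant genes and il26-/- GF replicate 1 the lowest for all 8, and only cpb1, at under 1 CPM, has groups that do not overlap.

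Trypsin, which cuts proteins after lysine and arginine, was encoded by 3 of the genes. The trypsin gene prss1 was at 8989, 10995 and 11798 CPM in il26-/- GF, against 10220, 14431 and 10422 CPM in WT GF. Its level in WT GF replicate 2 stood above the other 5 libraries, and the remaining 2 WT GF libraries lay inside the il26-/- GF range. The mean was 10594 ± 1447 CPM in il26-/- GF and 11691 ± 2375 CPM in WT GF (SD, n = 3 each). For prss1 the log2 fold change was -0.14 (SE 0.18, 95% confidence interval -0.55 to 0.27, adjusted p = 1.00 by edgeR).

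The trypsin genes prss59.1 and prss59.2 are neighbours in the RefSeq gene table of the GRCz12tu assembly, with no gene listed between them, and how reads shared by such copies were assigned is not given in the sources used here. CPM of prss59.1 were 7037, 8636 and 9328 in il26-/- GF, against 8370, 11415 and 8386 in WT GF. CPM of prss59.2 were 9592, 11697 and 12716 in il26-/- GF, against 11257, 15566 and 11406 in WT GF. For both, WT GF replicate 2 was the highest library and il26-/- GF replicate 1 the lowest, as for prss1. Each of them had a log2 fold change of -0.17 (SE 0.17 each, 95% confidence intervals -0.57 to 0.22 for prss59.1 and -0.57 to 0.23 for prss59.2, adjusted p = 1.00 by edgeR). The counts of prss59.2 were between 1.34 and 1.36 times those of prss59.1 in all 6 libraries, a ratio that moved far less than the level of either gene.

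Chymotrypsin cuts after large hydrophobic residues, and its gene ctrb1 was barely detected. It had 0, 14 and 8 counts in il26-/- GF, against 7, 8 and 13 counts in WT GF, and it was left out of the test by the filter on low counts. The 0 in il26-/- GF replicate 1, the library with the fewest counts, allows a level of up to 0.369 CPM (3 counts), which is within the range of the WT GF libraries. When every gene with at least 1 count in any library was tested, the log2 fold change of ctrb1 was -0.23 (adjusted p = 0.999 by edgeR). RefSeq lists this gene as ctrb.1, next to ctrb.2, which is zgc:136461 in the counts and had 0 counts in all 6 libraries. How reads shared between these copies were assigned is not given, so a low count does not show a low level of chymotrypsin transcripts. The chymotrypsin-like gene ctrl, in contrast, was at 2368, 3140 and 3302 CPM in il26-/- GF, against 2861, 4125 and 2904 CPM in WT GF, so not every gene of this class had low counts.

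The elastase gene ela2 was at 589, 743 and 794 CPM in il26-/- GF, against 646, 942 and 696 CPM in WT GF. CPM of ela3l were 3018, 3658 and 4047 in il26-/- GF, against 3247, 4569 and 3460 in WT GF. RefSeq lists ela2 next to ela2l, and the assignment of reads shared by these is likewise not given. In both cases 2 WT GF libraries lay within the il26-/- GF range and WT GF replicate 2 lay above it. The log2 fold change was -0.10 for ela2 (SE 0.17, 95% confidence interval -0.51 to 0.31) and -0.072 for ela3l (SE 0.17, interval -0.47 to 0.32), with an adjusted p of 1.00 by edgeR for both.

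Carboxypeptidases remove residues from the C-terminal end, those of type A aromatic or aliphatic ones and those of type B basic ones. CPM of cpa5 were 7839, 9700 and 10797 in il26-/- GF, against 8423, 12367 and 9377 in WT GF. CPM of cpa1, its neighbour in the RefSeq table, were 773, 952 and 1357 in il26-/- GF, against 850, 1243 and 1004 in WT GF. Here cpa1 departed from the other abundant members, since il26-/- GF replicate 3, not WT GF replicate 2, was its highest library. The group means of cpa1 were nearly the same, 1027 ± 300 CPM in il26-/- GF and 1032 ± 198 CPM in WT GF (SD, n = 3 each). The log2 fold change was -0.0069 for cpa1 (SE 0.23, 95% confidence interval -0.53 to 0.52) and -0.090 for cpa5 (SE 0.18, interval -0.52 to 0.34), with an adjusted p of 1.00 by edgeR for both.

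The type B gene cpb1 was counted only 4, 18 and 12 times in il26-/- GF, against 8, 7 and 9 times in WT GF. On the CPM scale these were 0.492, 0.459 and 0.754 in il26-/- GF, against 0.395, 0.354 and 0.294 in WT GF, so the groups did not overlap. In il26-/- GF replicate 1, 3 counts are worth 0.369 CPM, so the difference rests on few reads. The log2 fold change of cpb1 was 0.69 (SE 0.37, 95% confidence interval -0.18 to 1.56, unadjusted p = 0.103 and adjusted p = 1.00 by edgeR), and cpb1 was the only member tested with a positive one.

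Amylase cleaves starch and needs no activation by trypsin. CPM of amy2a were 1937, 2522 and 3105 in il26-/- GF, against 2378, 3701 and 2770 in WT GF. It had the widest range of the 8 abundant members over the 6 libraries, 1.91-fold between WT GF replicate 2 and il26-/- GF replicate 1, against 1.51-fold for ela3l, which had the narrowest. By the SD of log2 CPM within groups cpa1 varied more (0.35) than amy2a (0.33). Its mean was 2521 ± 584 CPM in il26-/- GF and 2950 ± 680 CPM in WT GF (SD, n = 3 each). For amy2a the log2 fold change was -0.23 (SE 0.22, 95% confidence interval -0.73 to 0.28, adjusted p = 1.00 by edgeR).

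**Figure D2:**
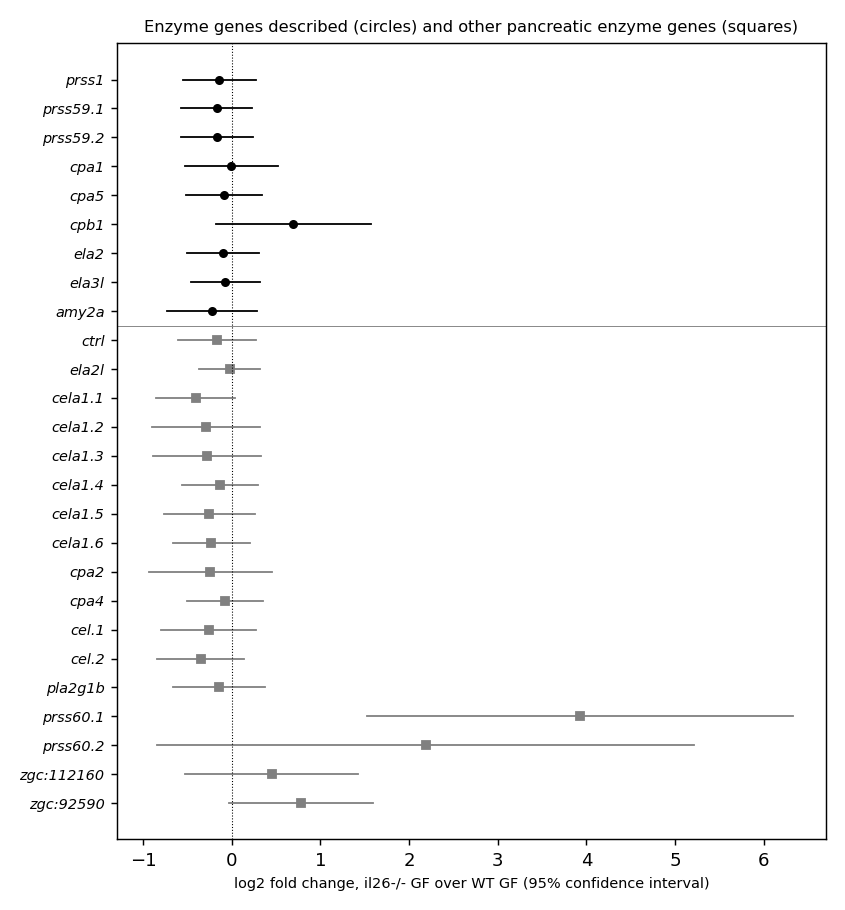
Log2 fold change of il26-/- GF over WT GF (x axis) with its 95% confidence interval for the 9 digestive enzyme genes tested (black circles) and 17 other pancreatic enzyme genes (grey squares). The intervals of all 9 include 0, 8 of the 9 estimates lie below 0, and prss60.1, at 3.93, has the largest positive estimate and an interval that excludes 0.

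Differences smaller than these intervals were not detectable with 3 libraries per group. Of the 8 abundant members, which had at least 1000 counts in every library, all had a negative log2 fold change, with a median of -0.12. Whether that common sign was kept depended on the library left out. It was kept without il26-/- GF replicate 3, without WT GF replicate 1 and without WT GF replicate 3. Without il26-/- GF replicate 2, cpa1 alone of the 8 turned positive (0.046). More of the 8 changed sign without WT GF replicate 2 or il26-/- GF replicate 1. WT GF replicate 2 was the highest library for 7 of the 8 (1855 of all 11062 genes tested). Without it only prss59.1 and amy2a of the 8 stayed negative. Of the 9 members tested, which include cpb1, 7 were then positive, with a median of 0.084. il26-/- GF replicate 1 was the lowest for 8 of the 8 (2192 of all 11062 genes tested). Without it prss1, prss59.1, prss59.2 and amy2a stayed negative, and 5 of the 9, cpb1 among them, were positive. The ratio of the mean shares of il26-/- GF and WT GF was 1.05 without WT GF replicate 2. The SD of log2 CPM within groups had a median of 0.25 over the 8 genes, against 0.19 over all genes tested.

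The 8 abundant genes moved up and down together, so their make-up as a set was steadier than their level. Each gene was expressed as a percent of the counts of the 8, a share that does not depend on library scaling and whose 95% Wilson interval reached at most 0.147 percentage points to either side. The share of prss1 was 22.6%, 22.5% and 21.9% in il26-/- GF, against 22.5%, 22.5% and 21.9% in WT GF, with 1.03-fold between the highest and the lowest library, where its CPM differed 1.61-fold. The largest ranges of share were 1.34-fold for cpa1 and 1.2-fold for amy2a, and the others were at most 1.08-fold.

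The shares of the elastase genes are given as a description, with no test. The share of ela3l was 7.59%, 7.48% and 7.50% in il26-/- GF, against 7.15%, 7.11% and 7.28% in WT GF. The share of ela2 was 1.48%, 1.52% and 1.47% in il26-/- GF, against 1.42%, 1.47% and 1.46% in WT GF. The groups did not overlap in share for ela3l, which was higher in il26-/- GF. In CPM its groups overlapped. Over all genes tested, 9.64% had groups that did not overlap in CPM, and no such rate was computed for shares. By the values alone, ela3l and ela2 were the genes among the 8 without overlap in share. For ela2 the lowest il26-/- GF and the highest WT GF library differed by less than counting error (95% Wilson intervals 1.45% to 1.5% in il26-/- GF replicate 3 and 1.45% to 1.49% in WT GF replicate 2), so a separation was not shown. For cpa1 the share was 1.94%, 1.95% and 2.52% in il26-/- GF, against 1.87%, 1.94% and 2.11% in WT GF, so its range came mainly from il26-/- GF replicate 3. The counts of cpa5 were 7.95 times those of cpa1 in that library and between 9.34 and 10.2 times in the other 5. The share of amy2a was 4.87%, 5.16% and 5.76% in il26-/- GF, against 5.24%, 5.76% and 5.83% in WT GF, with overlapping groups.

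**Figure D3:**
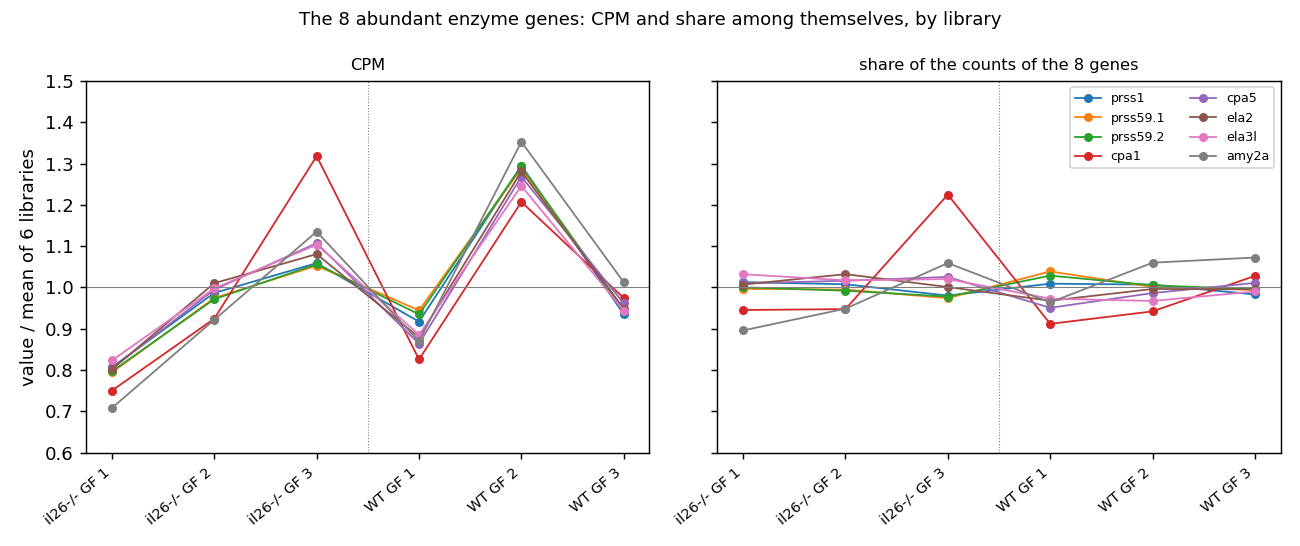
The 8 abundant digestive enzyme genes in the 3 il26-/- GF and 3 WT GF libraries, as CPM (left) and as the share of the counts of the 8 genes (right), each divided by its mean over the 6 libraries (y axis, no unit; lines join the values of 1 gene). The CPM lines run together, with up to 1.91-fold between libraries, and the share lines stay close to 1 apart from cpa1 in il26-/- GF replicate 3 and amy2a.

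Most of the other pancreatic enzyme genes had the same highest and lowest library as the members. Of 34 symbols listed, 18 were present and 17 were tested, of which 1 had a higher level in il26-/- GF and 0 a lower one at an unadjusted p under 0.05, and 0 passed adjustment. Their median log2 fold change was -0.17, against -0.0011 for all genes tested. Of the 17, 13 were highest in WT GF replicate 2 (1855 of all 11062 genes tested were). The lowest library was il26-/- GF replicate 1 for 12 of the 17 (2192 of all 11062). The elastase gene cela1.6 was at 8270, 10329 and 11380 CPM in il26-/- GF, against 10079, 14639 and 10448 CPM in WT GF. The bile salt-stimulated lipase gene cel.1 was at 981, 1290 and 1641 CPM in il26-/- GF, against 1269, 2003 and 1414 CPM in WT GF. CPM of the carboxypeptidase gene cpa4 were 698, 891 and 966 in il26-/- GF, against 766, 1118 and 811 in WT GF. Like the members, these 3 genes had WT GF replicate 2 as the highest library and il26-/- GF replicate 1 as the lowest. With the 10 members the listed enzymes held 5.75%, 6.80% and 7.18% of the counts in il26-/- GF, against 5.91%, 8.04% and 6.72% in WT GF.

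The protease gene prss60.1 did not share those extremes. It had 100, 539 and 59 counts in il26-/- GF, against 41, 1 and 1 counts in WT GF, or 12.3, 13.8 and 3.71 CPM against 2.02, 0.0506 and 0.0326 CPM. Its log2 fold change was 3.93 (SE 1.03), with an unadjusted p of 0.00586 and an adjusted p of 0.552 by edgeR, so it did not pass over all genes. With 1 library left out, the log2 fold change of prss60.1 lay between 3.24 (without WT GF replicate 3, adjusted p = 0.357) and 7.79 (without WT GF replicate 1, the one WT GF library with more than a single count, adjusted p = 0.175). The related gene prss60.2, singled out after its values were seen, had 173, 994 and 79 counts in il26-/- GF, against 233, 2 and 4 counts in WT GF. Its groups overlapped through WT GF replicate 1, and its log2 fold change was 2.19 (unadjusted p = 0.133 and adjusted p = 1.00 by edgeR). With 1 library left out it lay between 1.57 (without WT GF replicate 3, unadjusted p = 0.209) and 7.13 (without WT GF replicate 1, unadjusted p = 0.000278 and adjusted p = 0.188). Both genes were high in the same 4 libraries and almost absent from WT GF replicates 2 and 3, and WT GF replicate 2 was the library in which the members were highest. Over the 6 libraries their log2 CPM ran against the mean of the 8 abundant members (Pearson's r = -0.546 for prss60.1 and -0.629 for prss60.2). Whether acinar cells were the source of these 2 transcripts was not tested. The listed gene zgc:92590, also singled out after its values were seen, was at 26.2, 39.9 and 26.1 CPM in il26-/- GF, against 13.2, 28.9 and 12.2 CPM in WT GF (log2 fold change 0.78, unadjusted p = 0.0571 and adjusted p = 0.963 by edgeR). With 1 library left out, the log2 fold change of zgc:92590 lay between 0.53 (without il26-/- GF replicate 2, unadjusted p = 0.20) and 1.29 (without WT GF replicate 2, unadjusted p = 0.000558 and adjusted p = 0.431). The elastase gene cela1.1, also named after its values were seen, went the other way. It was at 19.6, 28.3 and 29.4 CPM in il26-/- GF, against 29.7, 42.2 and 31.5 CPM in WT GF. Its groups did not overlap, and its log2 fold change was -0.41 (unadjusted p = 0.067 and adjusted p = 0.981 by edgeR). Of the 17 genes tested, the groups did not overlap for 1 higher and 1 lower in il26-/- GF (532 and 534 of all 11062).

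**Figure D4:**
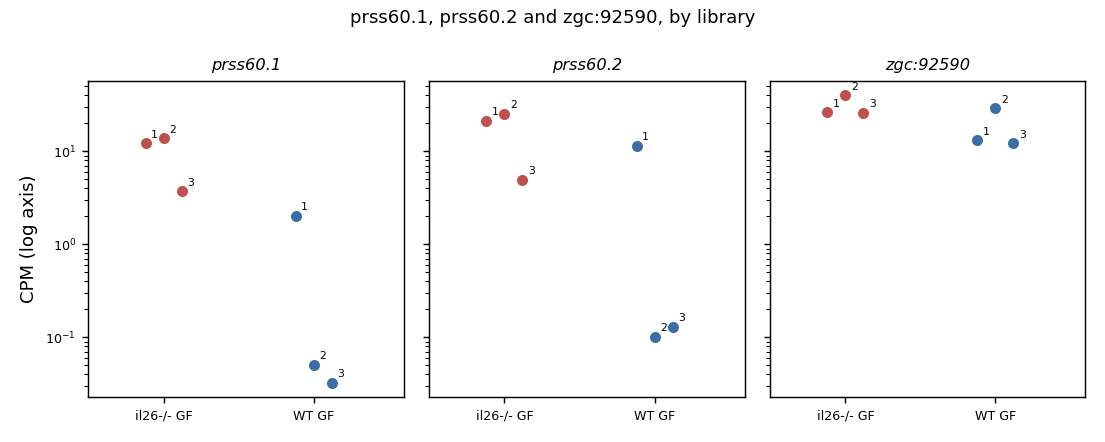
CPM (y axis, log scale) of prss60.1, prss60.2 and zgc:92590 in each il26-/- GF library (left of each panel) and WT GF library (right), with replicate numbers beside the points. WT GF replicates 2 and 3 are near the limit of detection for prss60.1 and prss60.2, and WT GF replicate 1 lies with or near the il26-/- GF libraries.

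Genes for making and releasing zymogen granules were listed next, 8 of 23 symbols being present and tested. At an unadjusted p under 0.05, 1 was higher and 0 were lower in il26-/- GF, 0 passed adjustment, and the median log2 fold change was -0.023. The exception was rab3da, whose mammalian counterpart is a small GTPase of zymogen granules, at 6.64, 7.73 and 5.85 CPM in il26-/- GF, against 4.44, 4.66 and 4.86 CPM in WT GF. Its groups did not overlap, and its log2 fold change was 0.54 (SE 0.15, unadjusted p = 0.00788 and adjusted p = 0.596 by edgeR). CPM of sycn.2, a gene for the granule protein syncollin, were 528, 675 and 695 in il26-/- GF, against 598, 962 and 707 in WT GF, with the same extremes as the members. CPM of pdia2, a protein disulfide isomerase gene, were 1038, 1027 and 949 in il26-/- GF, against 847, 1217 and 927 in WT GF.

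No transcription factor of acinar cells passed the test in either direction. Of 16 symbols listed, 14 were present and 13 were tested, 0 had an unadjusted p under 0.05 by edgeR in either direction, 0 passed adjustment, and the median log2 fold change was 0.0031. CPM of ptf1a, which with Rbpj proteins drives acinar enzyme genes, were 6.76, 8.62 and 5.15 in il26-/- GF, against 5.48, 8.41 and 5.77 in WT GF. CPM of bhlha15, a regulator of secretory cell maturation, were 7.13, 8.39 and 7.23 in il26-/- GF, against 5.72, 9.72 and 6.26 in WT GF. Both were named for their role after the values were seen, and their groups overlapped. The more abundant xbp1, gata6, gata5 and nr5a2, which many other gut cells express too, had log2 fold changes between -0.13 and 0.0031.

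The duct and endocrine compartments of the pancreas were read from markers of each. Among the duct markers, 4 of 9 symbols could be tested, of which 2 were higher in il26-/- GF at an unadjusted p under 0.05, 0 were lower and 0 passed adjustment. Over all 11062 genes tested, 338 were higher at that threshold. The progenitor and duct factor sox9b was at 11.1, 11.6 and 11.3 CPM in il26-/- GF, against 8.78, 8.0 and 9.69 CPM in WT GF (log2 fold change 0.36, unadjusted p = 0.0165 and adjusted p = 0.741 by edgeR). CPM of nkx6.1 were 1.23, 0.969 and 1.26 in il26-/- GF, against 0.790, 0.658 and 0.620 in WT GF (log2 fold change 0.71, unadjusted p = 0.0327 and adjusted p = 0.869 by edgeR). Neither gene overlapped between the groups, and both are also expressed outside the duct. With a library left out, the unadjusted p by edgeR reached 0.0584 for sox9b and 0.102 for nkx6.1. The more abundant duct markers anxa4 and cftr overlapped between the groups. CPM of anxa4 were 364, 403 and 379 in il26-/- GF, against 360, 384 and 260 in WT GF (log2 fold change 0.19, unadjusted p = 0.247 by edgeR). CPM of cftr were 32.0, 33.0 and 35.3 in il26-/- GF, against 34.7, 30.2 and 28.5 in WT GF (log2 fold change 0.10, unadjusted p = 0.344 by edgeR). Of the endocrine list, 11 of 13 symbols were tested, with 1 gene, pdx1, higher in il26-/- GF at an unadjusted p under 0.05, 0 lower and 0 past adjustment. CPM of pdx1, a factor of pancreas and anterior intestine, were 8.73, 10.9 and 10.9 in il26-/- GF, against 6.17, 8.51 and 5.74 in WT GF (log2 fold change 0.60, unadjusted p = 0.0123 and adjusted p = 0.674 by edgeR). The insulin gene ins had at most 1 count in any library, while the glucagon gene gcga was at 39.0 to 82.0 CPM. As for ctrb1, a low count of ins does not show a low level of its transcripts.

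Markers of organs next to the gut moved between the libraries, some of them with the enzyme genes. Of the 11 hepatocyte markers tested (12 listed, 12 present), 9 were highest in WT GF replicate 2 (1855 of all 11062 genes tested were). The summed hepatocyte markers were at 8414, 10701 and 13533 CPM in il26-/- GF, against 5363, 15804 and 9966 CPM in WT GF. The summed endocrine markers were at 124, 186 and 150 CPM in il26-/- GF, against 93.7, 240 and 92.2 CPM in WT GF, again highest in WT GF replicate 2. Of the 11 endocrine markers tested, 6 were highest there, and pdx1 and neurod1 were among those that were not. The enterocyte markers (10 of 10 tested) summed to 45265, 48876 and 49884 CPM in il26-/- GF, against 58815, 57392 and 48110 CPM in WT GF. The sum did not peak in WT GF replicate 2, but 3 of the 10 markers were highest there. Most of that sum was the apolipoprotein B gene apobb.1. It was at 30976, 32912 and 35146 CPM in il26-/- GF, against 41903, 38762 and 33074 CPM in WT GF. Of the 10 enterocyte markers, 0 were higher and 1 was lower in il26-/- GF at an unadjusted p under 0.05, and 0 passed adjustment. The lower one was apoa1a, an apolipoprotein gene, at 2592, 3111 and 2963 CPM in il26-/- GF, against 3395, 4242 and 3597 CPM in WT GF (log2 fold change -0.37, unadjusted p = 0.0194 and adjusted p = 0.772 by edgeR). Thus the members' highest library also had the highest summed hepatocyte and endocrine markers. These sums differed 2.95-fold and 2.60-fold between the highest and the lowest library, against 1.61-fold for the members. The lowest library was not shared. il26-/- GF replicate 1, lowest for all 8 abundant members, was the lowest for 0 of the 11 hepatocyte and 1 of the 11 endocrine markers tested (2192 of all 11062). The hepatocyte sum was lowest in WT GF replicate 1 and the endocrine sum in WT GF replicate 3. Skeletal muscle markers summed to 1316, 2391 and 1564 CPM in il26-/- GF, against 789, 661 and 1795 CPM in WT GF. Of these, 8 of 13 tested (20 listed, 18 present) were higher in il26-/- GF at an unadjusted p under 0.05, with 0 lower and 0 past adjustment. Over all 11062 genes tested, 338 were higher at that threshold. The part of these tissues in the levels of the digestive enzyme genes was not tested.

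**Figure D5:**
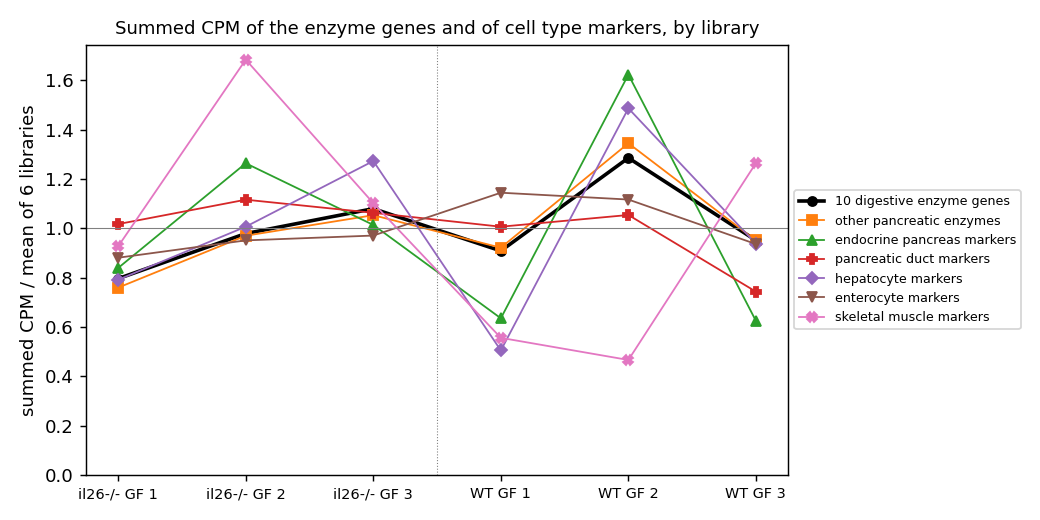
Summed CPM of the 10 digestive enzyme genes (black) and of lists of other pancreatic enzymes and cell type markers in the 3 il26-/- GF and 3 WT GF libraries, divided by the mean of the 6 libraries (y axis, from 0, no unit; lines join the values of 1 list). WT GF replicate 2 is the peak for the enzyme genes, the endocrine markers (240 CPM) and the hepatocyte markers (15804 CPM), and the lowest library for skeletal muscle markers (661 CPM).

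The genes whose log2 CPM followed the members most closely were found by Pearson's r with the mean centred log2 CPM of the members over the 6 libraries, which share depth and dissection, so r describes likeness alone. With the 9 members tested they were zgc:172051 (r = 0.986), si:ch211-262h13.5, si:dkey-19a16.4, st3gal3b, aqp9b, bhmt, srgap2, kifap3a, hyi and rcl1. With the 8 abundant members, a choice added after the data had been seen, 4 of these remained (si:dkey-19a16.4, bhmt, srgap2, kifap3a) and selenop2 came first (r = 0.995), with apoda.2, prkacab, si:dkey-14d8.7, mst1 and f7 completing the 10. CPM of selenop2, which encodes a selenoprotein P, were 106, 163 and 211 in il26-/- GF, against 138, 307 and 170 in WT GF. Of these genes bhmt, a betaine-homocysteine methyltransferase gene, and f7, a coagulation factor gene, are known for their expression in liver. Among the listed pancreatic genes the closest were cpa4 (r = 0.987) and the Kazal-type inhibitor gene spink4 (r = 0.986), which ranked 5 and 6 among all genes tested. Among the other pancreatic enzyme genes the lowest were zgc:112160 (r = -0.677), prss60.2 (r = -0.629) and prss60.1 (r = -0.546).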

How the data were processed

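Libraries were prepared from pooled guts with a stranded mRNA kit and sequenced as paired-end reads. The deposited values are raw counts of reads for each gene symbol, which the authors obtained after alignment to danRer11 and left unnormalized. The aligner, the counting tool, the annotation and the strand setting are not given in the sources used here. A count near 0, such as those of ins, fabp2, cpb1 or ctrb1, therefore does not show that a gene is unexpressed. Columns were matched to samples by library name, and 0 columns were left unmatched. The pools are labelled as biological replicates.

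Genes were filtered with edgeR's filterByExpr at its defaults (11062 of 15419 symbols kept, 1837 being at 0 in every library), scaled by TMM and tested as il26-/- GF over WT GF with edgeR's quasi-likelihood test, and p-values were adjusted by the Benjamini-Hochberg method across the whole table. R 4.3.3 was used with edgeR 4.0.16 and limma 3.58.1. CPM use the TMM-scaled library sizes, and log2 CPM a prior count of 2. The standard error of a log2 fold change was its size divided by the square root of F, and 95% intervals used the t distribution. At these depths 3 counts are worth 0.0765 to 0.369 CPM, and counting intervals cover counting error only. Groups of 3 libraries were not tested for outliers.

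The members and lists were chosen with earlier results of these data known. Genes named are all 10 members, the 4 genes with the highest mean CPM and every gene with an unadjusted p under 0.05 of each list, and the 10 genes most like the members. Some were left out for length. Genes named outside the rule are marked where they appear, with these exceptions. The listed genes cdh17, fabp2, ins, neurod1, zgc:112160, zgc:136461, hbaa1, hbba1 and hbba2 were also named outside the rule. Alternatives were DESeq2 1.42.0, a likelihood ratio test, limma-voom, other scalings and filters, a replicate block, and each replicate left out. All 10 members matched a RefSeq gene of GRCz12tu. The counts use another build, so this table gave only names and neighbours. Transcript lengths were not used here. Orders of genes by counts or CPM, and ratios of counts of 2 genes, therefore also carry transcript length and are not orders of transcript number.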

Additional observations from a re-analysis of the deposited data

How the results depend on the processing

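The number of members called (0) and of members at an unadjusted p under 0.05 (0) was the same in every alternative run, and the lowest unadjusted p of a member was 0.0785 over the other scalings, filters and tests and 0.0860 over the fits with a replicate left out. Among all genes, 1 was called in the reported fit, against 52 by DESeq2, 75 by the likelihood ratio test, 15 with the replicate block, 4 with the filter of at least 1 count, 4 with upper quartile scaling, 2 with total counts only, and 0 to 3 with a replicate left out. The count at an unadjusted p under 0.05 was 589, against 890 by limma-voom and 441 to 1133 with a replicate left out (1133 without WT GF replicate 3). The log2 fold change of cpa1 turned positive with total counts only (0.076), with totals without pancreatic enzymes (0.071) and with upper quartile scaling (0.019), and that of ela3l with total counts only (0.018) and with totals without pancreatic enzymes (0.012). The cause was not tested. The median over all genes moved by at most 0.084 on the log2 scale, under total counts. With a replicate left out, the log2 fold change ranged between -0.25 and 0.16 for cpa1, -0.20 and 0.091 for cpa5, -0.20 and 0.084 for ela2, -0.16 and 0.097 for ela3l, -0.22 and 0.043 for prss1, -0.25 and 0.0056 for prss59.2, -0.25 and 0.032 for ctrl, -0.40 and -0.024 for amy2a, -0.25 and -0.0025 for prss59.1, and 0.45 and 0.91 for cpb1. Over the same fits the median of the members ranged between -0.22 and 0.084 and the ratio of mean shares between 0.903 and 1.05. Deviations from the group means correlated at 0.179, 0.0957 and 0.304 between same-numbered libraries of il26-/- GF and WT GF, all positive. They do not settle whether the numbers pair the samples. No pairing is stated in the sources used here, so the reported fit had no block. The replicate block changed no call of a member, and 788 genes had an unadjusted p under 0.05 with it. With the block the unadjusted p by edgeR was 0.000976 for zgc:92590 and 0.0207 for prss60.2 (adjusted p = 0.212 and 0.554). For cela1.1 the unadjusted p by edgeR was 0.0137 with the block (adjusted p = 0.475). That of nkx6.1 rose to 0.0525. Changes within the members' intervals could not be detected with 3 libraries per group, and cpb1 and ctrb1 rest on at most 18 counts per library. Levels per coding length, promoter motifs and protein comparisons were not run because no sequence was used here.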

Other observations

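Outside the pancreas, genes for the later steps of protein digestion and for control of proteases gave 0 genes past adjustment. Of the brush border peptidases, transporters and phosphatases of enterocytes, 11 of 23 symbols were tested, of which 1 was higher and 1 lower in il26-/- GF at an unadjusted p under 0.05, and 0 passed adjustment, with a median log2 fold change of -0.16. CPM of the intestinal alkaline phosphatase gene alpi.1 were 1.84, 2.81 and 1.19 in il26-/- GF, against 1.33, 0.203 and 0.294 in WT GF (log2 fold change 1.77, unadjusted p = 0.0282 and adjusted p = 0.869 by edgeR). Its groups overlapped, and it had only 27, 4 and 9 counts in WT GF. The listed gene alpi.2, named after its values were seen, was more abundant and went the other way. CPM of alpi.2 were 112, 108 and 81.1 in il26-/- GF, against 188, 148 and 84.6 in WT GF (log2 fold change -0.48, unadjusted p = 0.124 by edgeR). CPM of xpnpep2, an aminopeptidase gene, were 250, 200 and 233 in il26-/- GF, against 355, 269 and 257 in WT GF (log2 fold change -0.37, unadjusted p = 0.0436 and adjusted p = 0.906 by edgeR). Of 16 protease inhibitor genes and related receptor genes tested (19 listed), 0 were higher and 1 lower at that threshold, and 0 passed adjustment. That gene, spink2.1, was at 51.2, 70.6 and 59.6 CPM in il26-/- GF, against 153, 96.4 and 62.2 CPM in WT GF (log2 fold change -0.77, unadjusted p = 0.0356 and adjusted p = 0.872 by edgeR). Without WT GF replicate 1, the log2 fold change was 2.97 for alpi.1, -0.20 for xpnpep2 and -0.38 for spink2.1. The lowest for alpi.1 was 1.31, without il26-/- GF replicate 2 (unadjusted p = 0.143 by edgeR).

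Among the erythrocyte markers, 3 of 8 were tested, of which 0 were higher and 1 lower in il26-/- GF at an unadjusted p under 0.05, and 0 passed adjustment. The embryonic beta globin gene hbbe1.1 was at 10.5, 12 and 10.6 CPM in il26-/- GF, against 18.2, 25.7 and 17.6 CPM in WT GF. Its groups did not overlap, and its log2 fold change was -0.89 (unadjusted p = 0.000904 and adjusted p = 0.336 by edgeR), with an adjusted p of 0.00862 by DESeq2 (log2 fold change -0.88) and of 0.0059 by the likelihood ratio test (log2 fold change -0.89). The other tested markers, hbae1.1 (log2 fold change -0.51, unadjusted p = 0.147 by edgeR) and slc4a1a (log2 fold change 0.15, unadjusted p = 0.699 by edgeR), overlapped between the groups, and slc4a1a had the opposite sign. The listed globin genes hbaa1, hbba1 and hbba2 had 0 counts in all 6 libraries.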
